A study of Danio rerio with 8 samples.

Results

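The 4 zebrafish libraries labelled scale melanocytes were described on their own, as the 4 columns of the deposited count table that carry the melanocytes name, out of 8 samples in the series. The fish were adults that expressed human BRAF V600E and EGFP, each from the mitfa promoter, and were mutant at alb (allele b4), and all 4 libraries share this background. Cells that carried EGFP but no pigment had been collected by sorting, with RNA taken in Trizol and libraries made with TruSeq chemistry. Columns are headed replicate 1, replicate 2 and, for a pair of them, replicate 3, so that pair is called here the first and second column of replicate 3. The sample titles run from replicate 1 to replicate 4, so the shared header does not make the pair 1 replicate. Which of these columns is replicate 4 is not given. Where 4 values stand together they are for replicate 1, replicate 2, and the first and second columns of replicate 3. Nothing in the labels says that the libraries came from separate fish, so the spread given below may be technical. With 1 group there is no contrast to test, and values are given for each library or as mean ± SD with n = 4.

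Zebrafish scales are thin plates of dermal bone that lie under an epidermis of basal, intermediate and superficial keratinocytes, with mucous cells and ionocytes between them. Osteoblasts on the plate lay down type I collagen and mineral-binding proteins, and osteoclasts resorb the plate. Melanocytes sit in the skin beside the scale and make melanin in melanosomes through enzymes such as tyrosinase, under the transcription factor Mitf. The mitfa promoter is known to be active in the pigment cell lineage, and the labels do not say how pure the sorted cells were.

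Total counts over the 28272 genes lay between 86888494 and 96320824 per library, and levels below are counts per 1000000 of the library's own total (CPM). At this depth 3 counts equal between 0.0311 and 0.0345 CPM, so counting error was small for genes above 1 CPM. That error covers the counting of reads alone, since no molecular identifiers are recorded. Genes with at least 10 counts numbered 26377 in replicate 1, 22836 in replicate 2, 26448 in the first column of replicate 3 and 22537 in the second. Replicate 1 and the first column of replicate 3 thus detected more genes than the other two libraries. All pairs of libraries differed by more than counting noise, with a chi-square of at least 127 per degree of freedom.

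The pigment cell transcripts of these libraries took a small share of counts, which goes against the cell type on the label. The libraries are called scale libraries from here on. The 28 rows matched to a list of pigment cell genes took 0.0288%, 0.0184%, 0.0224% and 0.0187% of counts (mean 0.0221% ± 0.00487, n = 4). No row of that list reached a mean of 100 CPM, which 780 of all 28272 genes did, and over so few rows that is near the background. A mean of at least 10 CPM was reached by 8 of the 28 rows, against 5430 of the 28272 genes. By these counts of rows the list was not below genes at large. The most counted was the copper transporter ATP7A, which supplies copper to tyrosinase but is used by many cells, at 102, 74.0, 66.6 and 93.2 CPM. The melanosome enzyme TYRP1 (ENSDARG00000056151) was at 27.2, 24.0, 18.1 and 21.1 CPM, and the melanosome fibril gene pmela at 18.9, 18.3, 9.97 and 9.40 CPM. In CPM both were higher in replicates 1 and 2 than in either replicate 3 column, an order that can change with another scaling.

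Other defining pigment cell genes lay nearer the floor. The melanin synthesis enzyme gene DCT was at 3.40, 1.25, 2.32 and 0.711 CPM, and tyrosinase, TYR, at 1.30, 0.997, 0.906 and 0.248 CPM. The crest factor SOX10 was at 0.552, 0.581, 0.480 and 0.248 CPM, and the melanocortin receptor MC1R at 0.196, 0, 0.171 and 0.180 CPM. Replicate 2 held 0 counts of MC1R, where 3 counts would equal 0.0311 CPM. GPR143, a melanosome receptor, was at 3.12, 2.29, 3.08 and 2.17 CPM. No row was found under the name mlana. None of these 5 genes reached 4 CPM in any library.

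Genes linked to the strain's mutation or transgenes were also low. SLC45A2 (ENSDARG00000002593), the transporter gene mutated in alb fish, was at 5.28, 2.55, 4.49 and 1.58 CPM. Zebrafish BRAF was at 3.71, 1.11, 3.71 and 0.147 CPM. All rows carry zebrafish identifiers, so the human transgene and EGFP were not measured here. Of 2 rows named MITF, ENSDARG00000003732 was at 13.1, 2.13, 5.097 and 0.226 CPM and ENSDARG00000037833 at 2.68, 0.934, 3.65 and 1.18 CPM. Both were highest in replicate 1 and the first column of replicate 3, as were SLC45A2 and BRAF. That order is common, since 57.7% of all 28272 genes had those libraries above both others. In these bulk libraries fewer cells of a type and less RNA per cell cannot be told apart.

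Those markers of the other pigment cells and of the crest that had a row were scarce too. Iridophore genes, of the reflective pigment cells, took 0.0125%, 0.00606%, 0.0147% and 0.00905% of counts, led by the purine synthesis enzyme PAICS (mean 21.7 ± 3.34 CPM). Their receptor kinase ltk was at 9.77, 1.06, 9.74 and 4.47 CPM. Xanthophore genes, of the yellow pigment cells, took 0.0377%, 0.0312%, 0.0324% and 0.0294%, led by the aldose reductase row AKR1B1 (ENSDARG00000045598, 254, 232, 213 and 212 CPM), an enzyme of general use. The xanthophore gene aox5 was at 2.66, 1.34, 4.72 and 0.598 CPM. No rows were found under the names gch2 and csf1ra, defining xanthophore markers, and 7 of the 19 symbols of that list matched no row. Neural crest and glia genes took 0.0149%, 0.00771%, 0.0176% and 0.00947%, with the crest factor FOXD3 at 0.322, 0.145, 0.181 and 0.0677 CPM and the myelin gene mbpb at 22.3, 25.4, 24.2 and 23.0 CPM.

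Few transcripts held most of the counts. The 10 most counted genes of each library took 36.1%, 33.9%, 41.6% and 31.9% of its counts (mean 35.9% ± 4.19, n = 4), and the 100 most counted took 60.1%, 62.8%, 62.0% and 61.8%. Reaching 50% of counts took 37, 35, 27 and 41 genes. Reaching 90% took 2980 genes in replicate 1 and 3189 in the first column of replicate 3, against 1454 in replicate 2 and 1662 in the second column. The first column of replicate 3 thus needed the fewest genes for 50% of counts and the most for 90%. Over the 4 libraries 11 genes had a mean of at least 10000 CPM, 115 of at least 1000 CPM, 780 of at least 100 CPM, 5430 of at least 10 CPM and 17636 of at least 1 CPM. These are shares of reads, and since transcript lengths were not used here they do not rank genes by number of molecules.

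**Figure D1:**
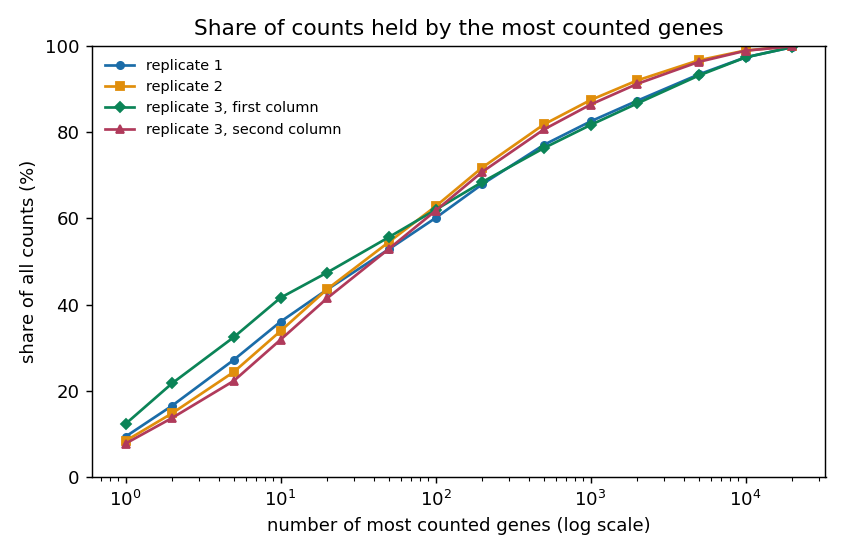
Share of all counts (%) held by the most counted genes of each library, against the number of genes on a log axis; each line is 1 library. The 10 most counted genes held between 31.9% and 41.6%, and the lines of replicate 1 and the first column of replicate 3 run below the others beyond 200 genes.

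Heat shock genes led the list. The inducible HSP70 gene hsp70.1 (ENSDARG00000029688), a chaperone made after heat or other stress, was at 71890.0, 64159, 94361 and 59540.1 CPM, or 7.19%, 6.42%, 9.44% and 5.95% of counts. The rows HSPA2 (37098, 33135, 48103 and 30685 CPM), hsp70.3 (22118, 19986, 29071 and 18384 CPM) and hsp70l (15487, 13869, 19757 and 12249 CPM) belong to the same family and moved with it. All were highest in the first column of replicate 3 and lowest in the second. The ratios of HSPA2 and hsp70.3 to hsp70.1 ranged over only 0.0187 and 0.0179 on the log2 scale, and that of hsp70l over 0.0714. Their separate levels are uncertain, and whether these rows share reads was not tested. The single most counted row was atp2a1 (ENSDARG00000020574), a calcium pump of fast muscle, at 94114, 84225, 123552 and 78028 CPM.

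That atp2a1 value is uncertain as a measure of the pump. In RefSeq's gene order atp2a1 directly follows hsp70.1, hsp70.2 and hsp70.3. The ratio of its count to that of hsp70.1 was 1.309, 1.313, 1.309 and 1.311, a range of 0.00399 on the log2 scale. Other muscle genes did not share its level: without atp2a1 the 28 remaining rows of the muscle list took 0.0269%, 0.0234%, 0.0274% and 0.0245% of counts, against 9.44%, 8.45%, 12.4% and 7.83% with it. Most of that remainder was TAGLN (229, 219.5, 234 and 227 CPM), an actin-binding gene of smooth muscle that other cells also use, and the muscle creatine kinase ckma was at 1.001, 1.09, 1.15 and 0.699 CPM. Together atp2a1 and those 4 heat shock rows took 24.1%, 21.5%, 31.5% and 19.9% of counts. Any read counted in more than 1 of these rows enters that share more than once. In counts, atp2a1 had 8177388, 8112645, 11587383 and 6916741. The row hsp70.1 had 6246411, 6179861, 8849644 and 5277867, and hsp70.3 had 1921763, 1925058, 2726449 and 1629592. Added together, hsp70.1 and hsp70.3 came close to atp2a1 in each library. Whether their reads were counted for atp2a1 was not tested.

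Such fixed ratios were found at other neighbouring rows, whose levels are likewise uncertain for at least 1 member. Among 561 rows at a mean of 100 CPM or more that had a place in the RefSeq order, 16 of 123 pairs up to 5 genes apart kept their ratio within 0.05 on the log2 scale over all 4 libraries, or 13.0%. Of all 157080 pairs of these rows 0.0573% did. The translation factor gene eif4a1a and the SUMO protease gene senp3b stood at ratios of 1.009, 1.008, 1.010 and 1.009. BATF and JDP2 (ENSDARG00000020133), which follow the immediate early gene fosab in that order, had ratios of 1.140, 1.147, 1.135 and 1.136. With the other JDP2 row (ENSDARG00000040137) the ratio of BATF ranged over 1.65 on the log2 scale. The row FOS kept no fixed ratio to ENSDARG00000020133, at 1.427, 1.075, 1.398 and 0.907, a range of 0.654 on that scale. Whether reads of 1 gene were counted for both members of a fixed pair was not tested.

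**Figure D2:**
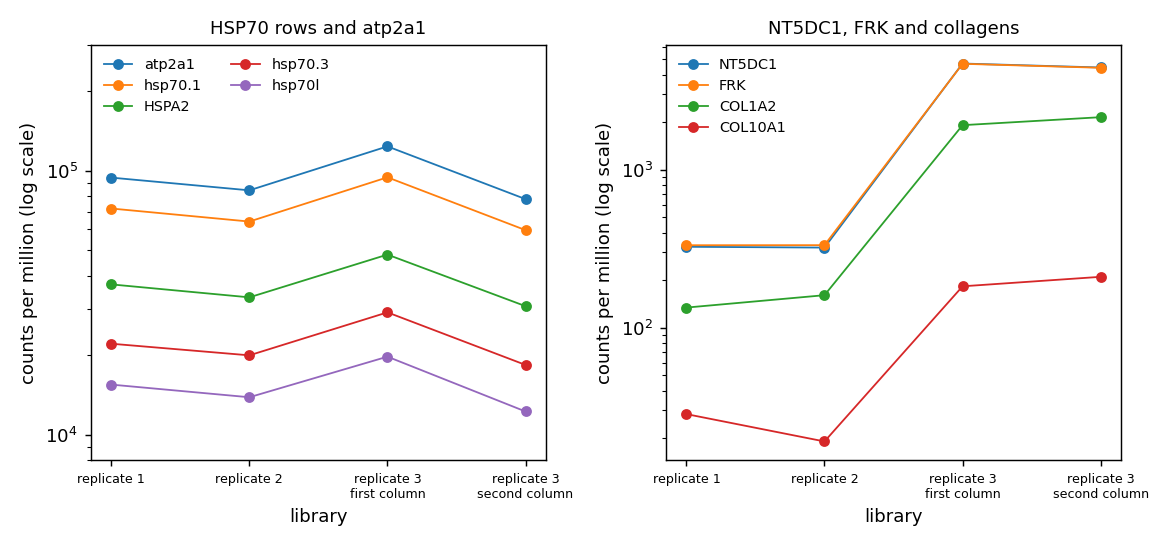
CPM (log axis) in each library for the heat shock rows with atp2a1 (left) and for NT5DC1, FRK, COL1A2 and COL10A1 (right); lines join the values of 1 row. On the left atp2a1 runs parallel to hsp70.1 at 1.31 times its count, and on the right NT5DC1 and FRK nearly coincide and lie higher in both replicate 3 columns.

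Ubiquitin, lipocalin, keratin and ferritin rows followed. Rows named UBB and ubb, for polyubiquitin, were at 42446, 38995, 29829.6 and 33756 CPM and 26766, 23784, 21219.6 and 21560.0 CPM. The genes ptgdsb.1 and ptgdsb.2, for prostaglandin D synthases, were at 17673, 22038, 11959 and 20853 CPM and 7216, 8832, 3855 and 6709 CPM; their similar sequences may share reads. Among keratins, the filament proteins of epidermis, krt5 was at 14018, 15080.1, 25615 and 17524 CPM and krt91 at 16314, 20788, 11552 and 20694 CPM. These moved apart in the first column of replicate 3, where krt5 was highest and krt91 lowest. The ferritin heavy chain row fthl27, of iron storage, was at 16634, 16753, 12643 and 17819 CPM. The mitochondrial ADP/ATP carrier SLC25A5 (7702, 9938, 5036 and 8609.8 CPM), the elongation factor eef1a1l1 (7395, 7948, 5021 and 6640.1 CPM) and the actin actb2 (6247, 7023, 4248 and 6849 CPM) were also among the 25 rows with the highest mean. An unnamed row, ENSDARG00000023055, stood at 1.003, 1.002, 1.004 and 1.002 times the count of SLC25A5.

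Apart from the row atp2a1 in the muscle list, epidermal transcripts were the most abundant cell type group. The 27 rows of the basal epidermis list took 4.301%, 4.91%, 4.91% and 5.11% of counts (mean 4.81% ± 0.352, n = 4), and 13 of them had a mean of at least 100 CPM. The epithelial adhesion gene epcam was at 3914, 3585, 2827 and 3673 CPM, the tight junction gene cldni at 1428, 1299, 1052 and 1156 CPM and the laminin gene lamb3, of the basement membrane, at 916, 1027, 786 and 819.5 CPM. The hemidesmosome integrin ITGB4 was at 395, 525, 613 and 532 CPM, and the keratinocyte transcription factor TP63 at 145, 128, 182 and 138 CPM. Of its 16 rows with a mean of at least 10 CPM 0 differed 4-fold between libraries, against 8.4% of the 5430 genes at that level, and over so few rows that is near the background.

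Superficial epidermis genes took 1.71%, 1.99%, 1.65% and 2.11% (mean 1.86% ± 0.222, n = 4), from 30 rows, 26 of them at a mean of at least 10 CPM. The calcium-binding genes icn and icn2 were at 5498, 7010.4, 3482 and 6951 CPM and 860.0, 1035, 578 and 1112 CPM. The annexin ANXA1 was at 2212, 2168, 1659 and 2189 CPM, the desmosome gene PERP at 1144, 1318, 1584 and 1456 CPM and the plaque gene JUP (ENSDARG00000070787) at 1151, 1024, 906 and 858 CPM. Keratin krt4 differed most among the 5 most counted, at 806, 857, 2584 and 1869.5 CPM, with both columns of replicate 3 above the others. The envelope gene evpla was at 41.0, 53.8, 126 and 90.2 CPM and the anterior gradient family gene agr1 at 89.5, 87.0, 113 and 121 CPM. No rows were found under the names ppl and anxa1c.

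Mucous cells and ionocytes, the secretory and ion-transporting cells of skin, left lower shares. Mucous cell genes took 0.0267%, 0.0396%, 0.0421% and 0.0602%; the disulfide isomerase AGR2 was at 131, 211, 136 and 258 CPM and the gel-forming mucins muc5.2 and muc5.1 at 97.3, 137, 205 and 247 CPM and 20.4, 34.6, 54.6 and 83.2 CPM. These mucins were lowest in replicate 1 and highest in the second column of replicate 3. Ionocyte genes took 0.102%, 0.0882%, 0.131% and 0.0895%. The carbonic anhydrase gene ca2 was at 80.3, 79.2, 284 and 161 CPM, highest in the first column of replicate 3. The ionocyte factor foxi3a was at 0.127, 0.374, 0.181 and 0.0226 CPM and the calcium channel TRPV6 at 1.58, 0.343, 1.71 and 0.259 CPM, and no row was found under the name foxi3b.

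**Figure D3:**
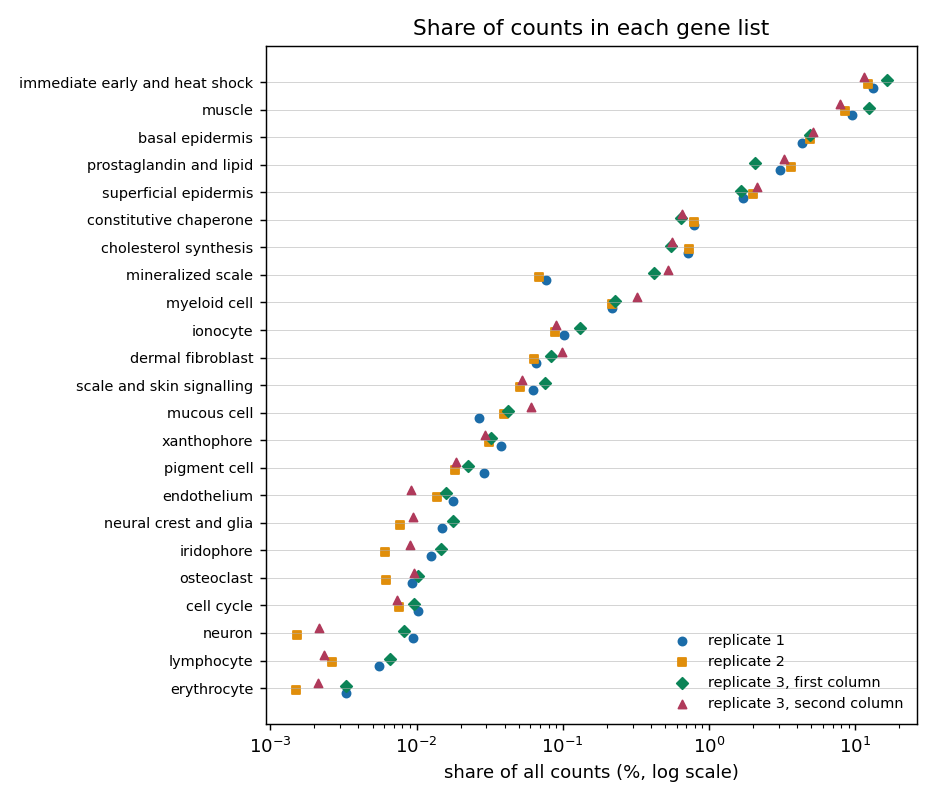
Share of all counts (%, log axis) in each of 23 gene lists, with 1 symbol per library. Immediate early and heat shock, muscle (nearly all from atp2a1) and basal epidermis lists lie at the top, pigment cell genes between 0.0184% and 0.0288%, and mineralized scale genes split into 2 libraries below 0.08% and 2 above 0.4%.

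Blood, immune, vessel and nerve markers differed widely in level. Myeloid genes took 0.216%, 0.216%, 0.229% and 0.321%, led by cd74a, the invariant chain of antigen presentation, at 1319.6, 1406, 1254 and 2028 CPM. The macrophage genes MPEG1 (ENSDARG00000055290, 16.8, 11.2, 37.6 and 13.8 CPM) and c1qa (30.1, 25.6, 33.3 and 50.9 CPM) and the leukocyte gene ptprc (8.11, 4.78, 17.5 and 15.6 CPM) were present in every library. Lymphocyte genes took 0.00555%, 0.00266%, 0.00656% and 0.00231%, with the immunoglobulin gene ighm at 10.99, 1.98, 10.3 and 2.14 CPM and no row found for lck. Erythrocyte genes took 0.00328%, 0.00149%, 0.00327% and 0.00211%; the globin row hbae1.1 was at 0.380, 0.0104, 0.448 and 0.0113 CPM, and no row was found for hbba1. Endothelial genes took 0.0179%, 0.0137%, 0.0160% and 0.00916%, of which SOX7 (115, 125, 112 and 71.9 CPM) gave most, while cdh5, the endothelial cadherin, was at 8.74, 2.73, 5.51 and 0.666 CPM. Neuron genes took 0.00939%, 0.00153%, 0.00818% and 0.00216%, with the synaptic gene SNAP25 (ENSDARG00000058117) at 10.8, 0.436, 9.02 and 0.305 CPM.

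Genes of mineralized scale separated the libraries most plainly. The 39 rows of this list took 0.0772%, 0.0682%, 0.423% and 0.525% of counts. The share in the first column of replicate 3 was 5.48 times that in replicate 1, and the share in the second column 7.69 times that in replicate 2. Type I collagen, the main protein of bone matrix, led: COL1A2 (ENSDARG00000020007) was at 134, 161, 1917 and 2154 CPM, col1a1a (ENSDARG00000012405) at 61.6, 65.3, 639.5 and 975 CPM and COL1A1 (ENSDARG00000035809) at 76.0, 60.8, 679 and 1007 CPM. The latter pair are near copies that may share reads. For each of these, replicate 1 and replicate 2 did not overlap the replicate 3 columns. Both replicate 3 columns lay above both others in 21.3% of the 5430 genes with a mean of at least 10 CPM. COL1A2 was 14.3 times higher in the first column of replicate 3 than in replicate 1, and 13.4 times higher in the second column than in replicate 2.

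Other matrix genes of bone showed the same split. The collagen-binding glycoprotein SPARC was at 48.3, 43.1, 251 and 309.6 CPM, and the row COL10A1, a collagen of osteoblasts in fish and of hypertrophic cartilage in mammals, at 28.5, 19.1, 183 and 210.4 CPM. The enamelin gene enam was at 10.9, 6.15, 88.7 and 128 CPM, and scpp7, for a secretory calcium-binding phosphoprotein, at 2.50, 3.81, 20.3 and 42.5 CPM. Osteocalcin, bglap, was at 9.62, 13.7, 34.7 and 74.6 CPM and osteopontin, spp1, at 4.09, 4.36, 13.1 and 16.5 CPM. The cartilage matrix gene chad was at 4.91, 1.14, 32.1 and 23.3 CPM. In all of these the lower replicate 3 column lay above both other libraries. That was so for 9 of the 13 rows of the list with a mean of at least 10 CPM, against 21.3% of the 5430 genes at that level. This order was not particular to bone genes. At that level it held for 10 of 12 dermal fibroblast, 15 of 19 myeloid and 15 of 26 superficial epidermis rows. It held for 5 of 16 basal epidermis, 1 of 20 cholesterol synthesis and 0 of 22 constitutive chaperone rows. All of these counts are for scaling by total counts.

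To count such genes, the 4 levels of each gene were put in order and the largest step between neighbours was taken on log2(CPM + 1). For 63 of 5430 genes with a mean of at least 10 CPM, or 1.16%, that step was at least 2-fold with both replicate 3 columns above it. Of 13 mineralized scale rows at that level 9 did so, and these 9 are the collagen, SPARC, enam, scpp7, bglap and chad rows given above. Of 12 dermal fibroblast rows at that level 4 did: the procollagen enhancer pcolcea (19.0, 11.1, 81.1 and 105 CPM), the collagen COL5A1 (27.4, 11.2, 70.11 and 78.5 CPM), and the small proteoglycans LUM (19.1, 15.8, 65.7 and 63.1 CPM) and DCN (24.7, 22.2, 51.2 and 51.2 CPM). Among 26 superficial epidermis rows 2 did, krt4 and the claudin cldne, and among 16 basal epidermis rows 0 did. With TMM scaling 39 genes met this rule, 30 of them among the 63, with 7 mineralized scale rows and 6 dermal fibroblast rows but 0 superficial epidermis rows. The 2 mineralized scale rows lost there were bglap and scpp7.

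Regulators of the osteoblast lineage varied. The osteoblast factor runx2b was at 70.8, 80.0, 87.5 and 70.6 CPM, and SP7, needed for osteoblast maturation, at 2.35, 0.997, 2.78 and 6.42 CPM. Both replicate 3 columns of SP7 lay above the other libraries, at a level under the 10 CPM needed for the count of steps. The homeobox genes DLX3 and msx1b, which act in skin and skeletal precursors, were at 129, 121, 74.9 and 83.9 CPM and 54.2, 51.4, 22.5 and 29.3 CPM, with both replicate 3 columns below the others. Osteoclast genes took 0.00932%, 0.00622%, 0.0102% and 0.00963%, with the collagen-degrading protease CTSK at 36.3, 29.7, 39.1 and 50.6 CPM and the acid phosphatase ACP5 at 20.6, 13.4, 27.6 and 27.7 CPM. Both were lowest in replicate 2 and highest in the second column of replicate 3. Dermal fibroblast genes as a whole took 0.0651%, 0.0635%, 0.0835% and 0.0987%, led by crip1 (339, 427, 205 and 397 CPM), a LIM-domain gene that was lowest in the first column of replicate 3. The fibroblast receptor PDGFRA was at 1.105, 1.1005, 2.06 and 1.21 CPM and the dermal factor twist2 at 1.77, 0.685, 2.24 and 0.981 CPM.

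**Figure D4:**
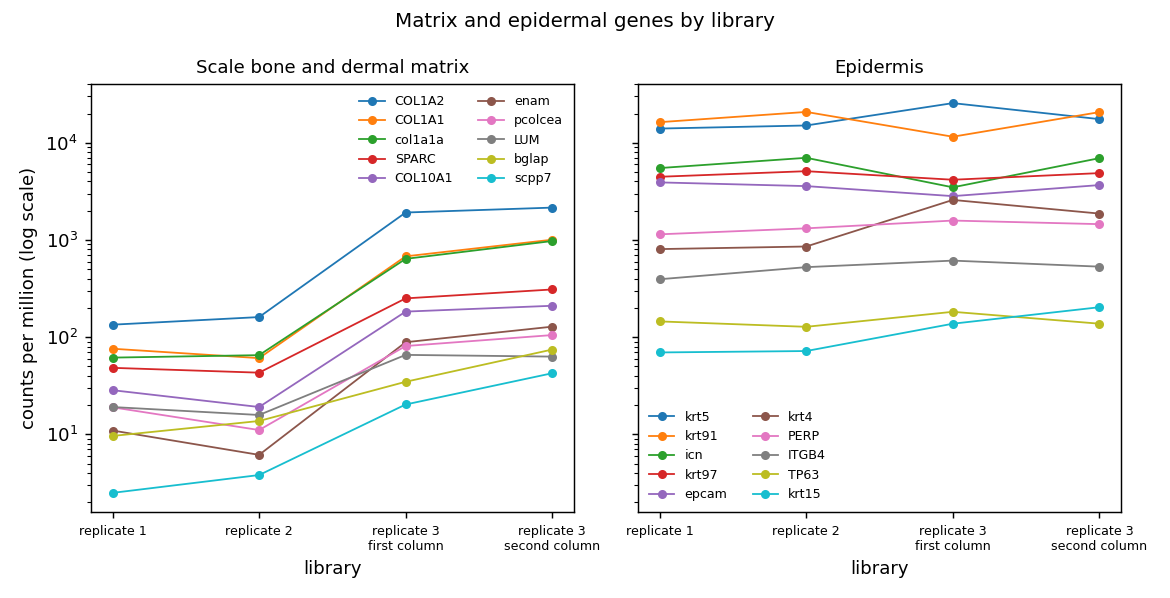
CPM (log axis) of 10 scale bone and dermal matrix genes (left) and 10 epidermal genes (right) in each library; lines join the values of 1 gene. COL1A2 stands at 134 and 161 in replicates 1 and 2 and at 1917 and 2154 in the replicate 3 columns. Among epidermal genes krt97 stays between 4168 and 5105, while krt4 stands at 806, 857, 2584 and 1869.5.

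The largest steps of this kind lay in a pair of rows outside the bone lists. NT5DC1, a nucleotidase-like gene, was at 326, 322, 4707 and 4442 CPM, and the tyrosine kinase FRK at 333, 334, 4689 and 4424 CPM. Their counts had ratios of 0.978, 0.965, 1.004 and 1.004 to each other. In RefSeq's order nt5dc1 lies between frk and the collagen gene col10a1b, for which no row was found by name. Both levels are uncertain for that reason, and whether reads of a neighbour entered them was not tested. The extracellular matrix gene paplnb, at 44.9, 42.0, 523 and 668 CPM, followed the same split.

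Over all genes the libraries formed pairs, each with 1 of the columns headed replicate 3. Pearson correlations of log2(CPM + 1), across 28272 genes that are not independent replicates, were 0.975 between replicate 1 and the first column of replicate 3 and 0.967 between replicate 2 and the second column. For the other 4 pairs they were between 0.923 and 0.941. In a principal component analysis of 5430 genes, 65.5% of variance lay on component 1, with replicate 1 (22.8) and the first column of replicate 3 (32.3) against replicate 2 (-27.4) and the second column (-27.7). Component 2 held 26.7% and set replicates 1 and 2 (18.1 and 17.1) against the replicate 3 columns (-15.3 and -19.9). The bone genes thus varied along the smaller of these 2 divisions.

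Along the larger division, 453 of the 5430 genes (8.34%) had replicate 1 and the first column of replicate 3 above a step of at least 2-fold, and 13 had the opposite pair above it. No row of the neuron list was among the 453, since none reached a mean of 10 CPM. The acid-sensing channel ASIC2 was at 103, 15.8, 86.3 and 12.4 CPM and the synaptic adhesion gene NRXN3 at 69.1, 10.8, 61.3 and 4.78 CPM. The receptor phosphatase PTPRU was at 50.4, 4.55, 45.1 and 4.57 CPM and the catenin CTNND2 at 52.3, 5.098, 43.2 and 3.86 CPM. ASIC2 is not named by the rule for named genes and was chosen after its values were seen. How many genes fall on each side depends on the scaling: with the authors' size factors 69 had replicate 1 and the first column of replicate 3 above the step and 976 had the opposite pair. The relation between genes within a library does not depend on it and is given next.

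Gene span on the genome went with this division. Of 4420 named genes with a mean of 10 CPM or more, 4237 (95.9%) had a span in RefSeq's annotation of GRCz12tu, while the authors used another build. Their median span was 23157 bases, while for 347 of the 365 named genes high in replicate 1 and the first column of replicate 3 it was 239884 bases. In the longest of 5 equal groups of genes (median 168445 bases) the median deviation from the 4-library mean of log2(CPM + 1) was 0.46, -0.54, 0.57 and -0.43. In the shortest group (median 4727 bases) it was 0.02, 0.06, -0.22 and 0.17. The longest group therefore stood above the shortest by 0.44 in replicate 1 and 0.80 in the first column of replicate 3, and lay 0.60 below it in both other libraries. The 63 genes high in both replicate 3 columns had a median span of 14671 bases, known for 51 of 55 with a symbol. Whether gene span itself or something that goes with it set these levels was not tested.

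**Figure D5:**
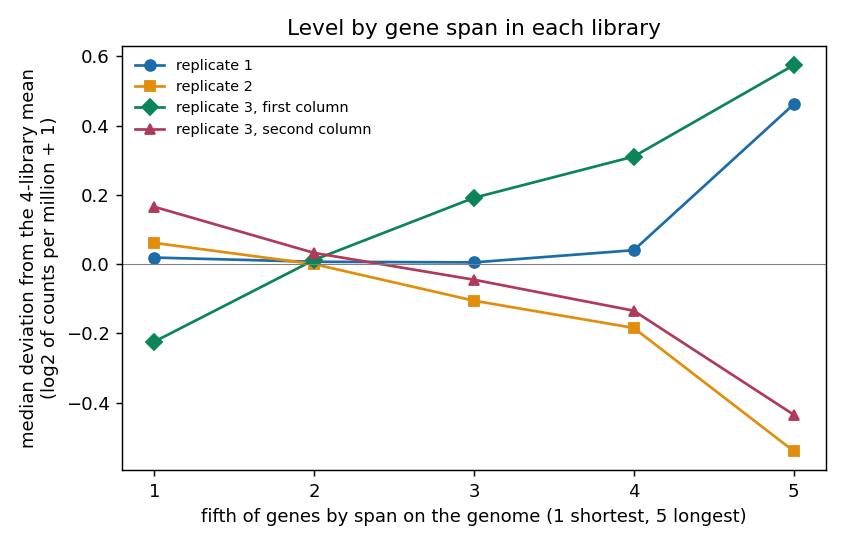
Median deviation of log2(CPM + 1) from the 4-library mean (vertical axis) for 5 equal groups of genes ordered by span on the genome, with 1 line per library. The longest group stands at 0.46 and 0.57 in replicate 1 and the first column of replicate 3 and at -0.54 and -0.43 in the other libraries.

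The lists differed in how many rows followed the same division. Of all 28272 genes, 57.7% had both replicate 1 and the first column of replicate 3 above both other libraries. For the pigment cell list 17 of 28 rows did so, for neurons 17 of 21, for endothelium 14 of 21, for iridophores 14 of 21, for ionocytes 19 of 25 and for muscle 25 of 29. It was 11 of 20 for neural crest and glia, 4 of 8 for osteoclasts, 6 of 11 for mucous cells and 10 of 31 for dermal fibroblasts. Among epidermal rows it was 10 of 27 for the basal and 2 of 30 for the superficial list. Of these rows 16 basal and 26 superficial had a mean of at least 10 CPM, against 5430 of all 28272 genes. The share among genes at that level was not computed, and whether level goes with these differences was not tested. Shares near 57.7%, that of pigment cell genes included, are those of genes at large. OCA2, a melanosome channel gene, had both libraries above the others, at 18.8, 2.51, 15.9 and 2.92 CPM.

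Stress and immediate early genes were high in every library. The 40 rows of that list took 13.3%, 12.1%, 16.5% and 11.4% of counts, and 31 of them had a mean of at least 100 CPM. The heat shock row HSPA2, with 3.71%, 3.31%, 4.81% and 3.07% of counts, is not in that list. The HSP40 co-chaperone dnajb1b was at 4735, 4230.4, 3935 and 3711 CPM, the AP-1 genes FOS and JUNB at 2229, 1834, 2549 and 2495 CPM and 2109, 2268, 2427 and 2839.9 CPM, and the survival gene mcl1a at 3158, 4031, 2087 and 3951 CPM. JUN ranged more widely, at 333, 197, 591 and 921 CPM. Constitutive chaperones, a list that also leaves HSPA2 out, took 0.793%, 0.790%, 0.643% and 0.649%. They were led by HSPA8 (ENSDARG00000068992, 4279, 4336, 3088 and 3575 CPM) and HSP90AB1 (1133, 1111, 957 and 920.1 CPM). In each library the stress list, which includes immediate early genes, held far more counts than the constitutive one. HSP90AA1 was at 4914, 4732, 4459 and 4250.0 CPM.

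Lipid genes formed another abundant group. Prostaglandin and lipid genes took 3.08%, 3.66%, 2.08% and 3.27%, of which the ptgdsb rows gave most. The apolipoprotein apoeb was at 2281, 2387, 2064 and 2477 CPM, the prostaglandin synthase PTGS2 (ENSDARG00000004539) at 1830.4, 1497, 1779 and 1333 CPM and CYP7A1, which starts the making of bile acids, at 859, 899, 352 and 426 CPM. CYP7A1 in the first column of replicate 3 stood at 0.410 times replicate 1, and in the second column at 0.474 times replicate 2. Cholesterol synthesis genes took 0.716%, 0.734%, 0.545% and 0.558%, with the sterol oxidase MSMO1 at 1991, 2034, 1200.2 and 1383 CPM and HSD17B7 at 1260.0, 1176, 1041 and 1051 CPM. The TMM factors were 1.22, 0.766, 1.32 and 0.809, so TMM lowers replicate 1 and the first column of replicate 3 against the other libraries. The order of libraries in this list was not recounted with TMM and can change with it. With scaling by total counts, both replicate 3 columns lay below both other libraries in 13 of the 21 cholesterol synthesis rows, against 8.07% of all genes. These are unlike sets, since 20 of the 21 rows had a mean of at least 10 CPM. The share among genes at that level was not computed.

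Proliferation and signalling genes took small shares of counts, but signalling rows were not low one by one. Of 44 rows of the scale and skin signalling list 11 had a mean of at least 10 CPM, with a median row at 4.99 CPM. In the cell cycle list it was 1 of 29 rows, with a median row at 1.65 CPM. Among all 28272 genes 5430 had a mean of at least 10 CPM and 17636 of at least 1 CPM. The signalling count is near that share at 10 CPM, and the cell cycle count lies below it. Cell cycle genes took 0.0103%, 0.00761%, 0.00959% and 0.00737%; the replication clamp PCNA was at 29.6, 32.1, 23.5 and 34.0 CPM and the proliferation marker mki67 at 4.34, 3.71, 3.96 and 0.102 CPM. Signalling genes known from scale and skin took 0.0622%, 0.0514%, 0.0750% and 0.0522%, led by beta-catenin, CTNNB1 (159, 166, 184 and 159 CPM), and the Notch ligand jag1b (85.9, 83.5, 102 and 70.8 CPM). The Notch receptor notch2 was at 43.4, 34.7, 69.2 and 53.7 CPM, the ligand WNT7A at 44.1, 46.3, 60.6 and 42.9 CPM and the hedgehog receptor PTCH1 at 8.23, 3.71, 11.2 and 5.14 CPM. No row was found under the name edar, the receptor of the ectodysplasin pathway of scale formation.

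Across the 5430 genes 1856 (34.2%) differed at least 2-fold between the highest and the lowest library, 456 (8.4%) at least 4-fold and 164 (3.02%) at least 8-fold. The last number was 74 without replicate 1, 174 without replicate 2, and 109 and 75 without the first and second columns of replicate 3. For any 1 gene, highest over lowest cannot rise when a library is left out. Falls therefore do not show that the number rested on single libraries. With TMM scaling it was 70. The median SD of log2(CPM + 1) was 0.34, and 0.60 with the authors' size factors. Genes with the smallest SD among those at a mean of at least 100 CPM and with a unique symbol included the chaperonin subunit CCT5, at 184, 186, 189 and 185 CPM. The growth factor gene TGFB3 was at 103, 103, 101 and 107 CPM, the antiproliferative gene BTG1 at 1172, 1214, 1147 and 1213 CPM, the claudin cldna at 1700.0, 1599, 1579 and 1617 CPM and the chromatin reader BRD2 at 467, 440.1, 468 and 444 CPM. In all, 12523 genes lay at 1 CPM or more in every library. These stable values hold relative to each library's total and would move with another scaling.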

How the data were processed

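Whole-number counts of reads per gene for 28272 zebrafish Ensembl identifiers had been made by the authors and deposited in 1 table. A further deposited table holds the same counts as signal, divided by 1 size factor per library (0.871, 0.446, 0.958 and 0.427); it served to read those factors only. Per the submitters' processing notes, STAR 2.3, HTSeq and DESeq2 and the build Zv9 were used, with no role or order. Strand setting, annotation release and the handling of reads with several alignments: not given in the sources used here. Overlapping genes and near copies may therefore share or lose reads. The 8 columns of per-sample values from the melanomas were not used.

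Counts were divided by each library's total (CPM), and log2(CPM + 1) was used for spread, correlations and principal components. TMM (edgeR 4.0.16), DESeq2 1.42.0 and the authors' size factors in R 4.3.3 were alternatives for scaling. Other alternatives were other minimum levels, a pseudocount of 5, exact symbols only, a total without the 10 most counted genes, and omission of each library in turn. Alternatives chosen after seeing the data were the authors' size factors, the muscle list without atp2a1, the counts of genes by largest step, and leaving out replicate 2 and the second column of replicate 3 together. The code for the step rule was tested on simulated data with large planted steps, which says nothing of steps near the 2-fold threshold.

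Symbols were found for 19599 of 28272 identifiers, and 2765 share one. Of the symbols in the gene lists, 418 matched by symbol, 86 by synonym and 64 without the paralog letter, and 107 matched no row. Named genes were the 25 with the highest mean share, and the 5 most counted members and the defining markers of each list. To these were added the 20 most variable genes with a unique symbol (mean of 10 CPM or more). The 10 least variable (mean of 100 CPM or more) were also named, as were genes linked to the strain's mutation or transgenes. Others belong to a list or were chosen after their values were seen. A further part of the rule, by counts per coding length, was not run. The members and lists were chosen with earlier results of these data known. Some genes, 1 allele of the strain and 1 list are not reported here. Gene order and spans came from RefSeq's annotation of GRCz12tu; no coordinates are printed, because the counts were made on another build. Depth was 86888494 to 96320824 counts per library. Python 3.11.15, pandas 2.3.3 and matplotlib 3.10.9 were used.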

Additional observations from a re-analysis of the deposited data

Results flagged for a closer look

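Each of 165 values (list shares, library measures and named genes with a mean of at least 10 CPM) was examined for 1 library far from the other 3, where chance flags about 1 in 20. Dixon's gap test marked 4. Myeloid genes took 0.321% of counts in the second column of replicate 3, against 0.216% to 0.229% in the other libraries. ANXA1 was at 1659 CPM in the first column of replicate 3, against 2168 to 2212 CPM elsewhere. ERGIC3, chosen for its small spread, was at 149.9 CPM in the second column of replicate 3, against 137 to 139 CPM. The row GANAB (ENSDARG00000076888) falls outside the rule for named genes and was picked with its values known; it stood at 38.7 CPM in replicate 2, against 1.90 to 8.04 CPM.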

How the results depend on the processing

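No paired analysis was possible because the results come from no test and 1 group is described. Per coding length, the list shares and the 10 most counted genes were not run, since no transcript lengths were used here. Of 23 list shares, each moved by less than 1 SD when any single library, or replicate 2 and the second column of replicate 3 together, was left out. That outcome was fixed in advance, since leaving out so many libraries cannot shift a mean by 1 SD of the same values. It therefore says nothing of how stable the shares are. With the 10 most counted genes taken out of the total, 2 shares moved by less than 1 SD. The others became, as a mean, 0.0345% for pigment cell, 0.0167% for iridophore, 0.0510% for xanthophore, 0.0197% for neural crest and glia, 1.98% for basal epidermis, 2.89% for superficial epidermis, 0.0653% for mucous cell, 0.161% for ionocyte, 0.0138% for osteoclast, 0.121% for dermal fibroblast, 0.0223% for endothelium, 0.00400% for erythrocyte, 0.381% for myeloid cell, 0.00679% for lymphocyte, 0.0399% for muscle, 5.9996% for immediate early and heat shock, 1.12% for constitutive chaperone, 0.992% for cholesterol synthesis, 1.87% for prostaglandin and lipid, 0.0136% for cell cycle and 0.0945% for scale and skin signalling genes. Falls there follow from listed genes being among those 10, and rises from the smaller total. With exact symbols only, fewer rows matched and the mean was 0.00595% for iridophore, 0.00707% for neural crest and glia, 1.38% for superficial epidermis, 0.0172% for ionocyte, 0.00617% for osteoclast and 0.0485% for scale and skin signalling. Without atp2a1 the muscle share was 0.0256%.

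The 12523 genes at 1 CPM or more in every library became 20575 with at least 10 counts as the rule. The 164 genes that differed 8-fold or more became 70 with TMM, 69 with DESeq2 size factors, 76 with the authors' size factors, 2677 at a mean of 1 CPM or more and 12 at 50 CPM or more. It was 74 without replicate 1, 174 without replicate 2, 109 and 75 without the first and second columns of replicate 3, and 16 without both replicate 2 and that second column. The median SD of 0.34 became 0.60 with the authors' size factors and 0.21 without those 2 libraries. The mean correlation of 0.946 became 0.921 on genes at 10 CPM or more and 0.975 without those 2 libraries. Genes at least 2-fold higher in both replicate 3 columns numbered 63, and 39, 40 and 31 with TMM, DESeq2 and the authors' size factors. Those higher in replicate 1 and the first column of replicate 3 numbered 453, and 169, 113 and 69. Except where a sentence gives one, the cause was not tested. Of 215 levels of named genes, 4 moved by at least 1 SD with TMM, 9 with DESeq2 size factors and 16 with the authors' size factors. When 1 library was left out 0 did, but that was fixed in advance, since 1 library cannot shift the mean by so much.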

Other observations

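The genes and families below were chosen after their values were seen. Cytosolic ribosomal proteins, the protein part of the ribosome, took 5.13%, 6.75%, 3.003% and 6.21% of counts over 75 rows, lowest in the first column of replicate 3. RPL9 was at 923, 1256, 431 and 1036 CPM and RPS14 at 519, 704, 237 and 575 CPM. With scaling by total counts, 8 of 32 constitutive chaperone rows were lower in both replicate 3 columns than in both other libraries, against 8.07% of all genes. Of these rows 22 had a mean of at least 10 CPM, and the share among genes at that level was not computed. The stress factor XBP1 was at 1151, 1348, 667 and 757 CPM, HERPUD1 at 159, 155, 88.2 and 61.9 CPM, MANF at 24.3, 23.6, 11.8 and 11.7 CPM and the chaperone HSP90B1 at 249, 223, 146 and 112 CPM, each picked for being higher in replicates 1 and 2. Larger steps of that direction lay in the neuropeptide gene npb (30.4, 35.6, 2.39 and 1.76 CPM) and the protease inhibitor TFPI2 (64.6, 73.6, 10.5 and 7.12 CPM). All 49 collagen rows held 0.0889%, 0.0624%, 0.423% and 0.484% of counts.

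A few rows were high in some libraries and almost empty in others. The left-right patterning ligand spaw had 3234, 0, 16 and 2409 counts, and the microRNA row mir2188 had 4, 3437, 18 and 2419 counts. In RefSeq's order these 2 lie with 1 named gene, ank1a, between them. The segmentation clock gene her1 had 117, 3437, 2832 and 2406 counts, and the kinase gene brsk1b had 6441, 5646, 147 and 5707 counts. The row GANAB (ENSDARG00000076888) had 699, 3724, 555 and 168 counts.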
